A study of Mus musculus with 16 samples.

Results

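The results concern 9 genes for the first steps of drug and lipid ester metabolism in mouse adipose tissue: the carboxylesterases Ces1d and Ces1f, the deacetylase Aadac, the flavin-containing monooxygenases Fmo1 and Fmo2, the alcohol dehydrogenase Adh1, the aldehyde oxidase Aox1, and the epoxide hydrolases Ephx1 and Ephx2. They are 9 of 35565 genes in the expression table, and they hold 20 of its 130343 entries, each entry being a RefSeq transcript. The entries were taken by gene symbol. Aadac was chosen by its measured rise in subcutaneous fat of obese mice, so its values are given as a description without a test. The other 8 genes joined it by function.

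RNA was sequenced from inguinal subcutaneous adipose tissue (SAT) and mesenteric visceral adipose tissue (VAT) of 8 wild-type (WT) male C57BL/6J mice. The lean mice (n = 4) stayed on a normal laboratory diet, and the obese mice (n = 4) ate a high-fat diet with 42% of its calories from fat and 0.2% cholesterol. The diets began at 10 weeks of age and lasted 12 to 14 months. Each mouse gave 1 library of each tissue, so that 16 libraries form the groups lean SAT, obese SAT, lean VAT and obese VAT.

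These enzymes work mainly in the endoplasmic reticulum and cytosol of liver, lung, intestine and adipose tissue. Carboxylesterases and Aadac cut ester and amide bonds in drugs and in stored lipids, and Ces1d hydrolyses triacylglycerol in adipocytes. Flavin-containing monooxygenases add oxygen to nitrogen and sulfur atoms with FAD and NADPH. Alcohol dehydrogenase and aldehyde oxidase act in turn on alcohols such as retinol and on the aldehydes made from them, and epoxide hydrolases open the reactive ring of epoxides, those of fatty acids included.

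Of the 20 entries, 16 had at least 1 count and 12 passed the filter on low values (more than 1 CPM, the count scaled by the library total, in at least 3 of 16 libraries). The 12 belong to 8 genes. Ces1d, Aadac and Adh1 have 1 entry each. Fmo1 passed with 3 of its 4 entries, Fmo2 with 2 of 3, Aox1 with 2 of 2, and Ces1f and Ephx1 with 1 of 2. None of the 4 entries of Ephx2 passed, and they held 203 counts in all. How reads shared by several transcripts of a gene were counted is not stated, so a low count of a gene with several entries is not read as low expression.

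In the mouse genome build GRCm39 some of these genes lie near each other. On chromosome 1, Fmo1 (162655471 to 162694185, minus strand) ends 7.687 kb from Fmo2 (162701873 to 162726295, minus strand). On chromosome 8, Ces1d (93892693 to 93924466, minus strand) and Ces1f (93981999 to 94006375, minus strand) lie 57.532 kb apart, with Ces1e between them. The others lie apart. Aox1 (58068908 to 58145995, plus strand) and Ephx1 (180803775 to 180848537, minus strand) are on chromosome 1, Aadac (59933138 to 59948549, plus strand) and Adh1 (137966752 to 137996462, plus strand) on chromosome 3, and Ephx2 (66319338 to 66362011, minus strand) on chromosome 14.

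RefSeq promoters (250 bases before to 50 bases after a start) were at hand for 5 of the 9 genes: Aadac, Fmo2, Adh1, Aox1 and Ephx1. The table gives them for build GRCm38.p6, and each was placed in GRCm39 by an exact match of its whole sequence. The 3 below belong to Aadac, Ephx1 and Aox1. Aadac was chosen by its level in obese SAT. Ephx1, like 1 entry of Fmo2, was called higher in obesity in both tissues. Aox1 was called lower in obese VAT on 1 entry, as were Ces1d and Ces1f. Capitals mark matches on either strand to any of 8 short motifs: the TATA box TATAAA, the CAAT box CCAAT, the GC box GGGCGG, the E-box CACGTG, the nuclear receptor core AGGTCA, the aryl hydrocarbon receptor core GCGTG, the antioxidant response core TGACNNNGC and the C/EBP core TTGCNNAA.
Aadac, chr3:59938959-59939258, plus strand: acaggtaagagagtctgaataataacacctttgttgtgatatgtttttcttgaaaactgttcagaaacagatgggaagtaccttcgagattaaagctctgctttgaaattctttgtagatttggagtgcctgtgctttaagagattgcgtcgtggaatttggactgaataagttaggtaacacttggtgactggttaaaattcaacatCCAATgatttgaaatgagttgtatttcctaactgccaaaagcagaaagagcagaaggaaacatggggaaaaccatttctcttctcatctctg
Ephx1, chr1:180845085-180845384, minus strand: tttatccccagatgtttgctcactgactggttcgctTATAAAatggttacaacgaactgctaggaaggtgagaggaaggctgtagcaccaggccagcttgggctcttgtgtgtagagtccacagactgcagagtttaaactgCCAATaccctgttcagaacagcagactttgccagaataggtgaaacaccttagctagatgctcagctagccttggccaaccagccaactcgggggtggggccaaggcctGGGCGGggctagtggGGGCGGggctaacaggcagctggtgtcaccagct
Aox1, chr1:58068878-58069177, plus strand: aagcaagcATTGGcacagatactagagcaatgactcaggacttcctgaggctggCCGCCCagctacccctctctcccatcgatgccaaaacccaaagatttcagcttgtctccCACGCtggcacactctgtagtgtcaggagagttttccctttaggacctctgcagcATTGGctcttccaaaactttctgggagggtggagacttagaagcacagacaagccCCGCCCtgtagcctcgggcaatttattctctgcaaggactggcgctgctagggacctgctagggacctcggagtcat
The Aadac promoter held 1 CCAAT, a motif found in 37.4% of the 32851 promoters in the table, and none of the other 7 motifs. Its GC content was 37.3%, against 54.3% in each of the other 2. The Ephx1 promoter held 2 copies of the GC box GGGCGG near its start (35.7% of promoters hold it), 1 CCAAT and 1 TATAAA (13.6%). The Aox1 promoter held 2 copies of GGGCGG, 2 of CCAAT and 1 of GCGTG, the core that the aryl hydrocarbon receptor binds (32.4%). The Adh1 promoter held 1 CACGTG (7.15%). The 2 Fmo2 promoters, which overlap, held 1 TTGCNNAA each (10.8%), and the downstream promoter also held 1 AGGTCA (16.3%). None of the 6 promoters held TGACNNNGC (12.4%). A match describes letters and is not a binding site.

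Total counts ranged from 1256082 (VAT, lean replicate 1) to 16614407 (SAT, obese replicate 3). VAT, obese replicate 1, with 2247737 counts, was also shallow, and the edgeR tests of member entries were also computed without these 2 libraries. The entry ratios and the sums per gene were not, and for the listed genes no such values are given. Among 12 markers of adipocytes, Plin4 was at 0 in every library and the others were present. Their summed level was 41604 to 58247 CPM in lean SAT, 37534 to 52402 in obese SAT, 22044 to 35032 in lean VAT and 15738 to 26556 in obese VAT. Summed levels of 12 macrophage markers were 1499 to 2141 CPM in lean SAT, 2439 to 3404 in obese SAT, 2589 to 3375 in lean VAT and 5691 to 8311 in obese VAT. The macrophage sums did not overlap between diets in either tissue, and the adipocyte sums did. In bulk tissue, fewer cells of a type and less RNA per cell cannot be told apart, and the part of these shifts in the results below was not tested.

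**Figure D1:**
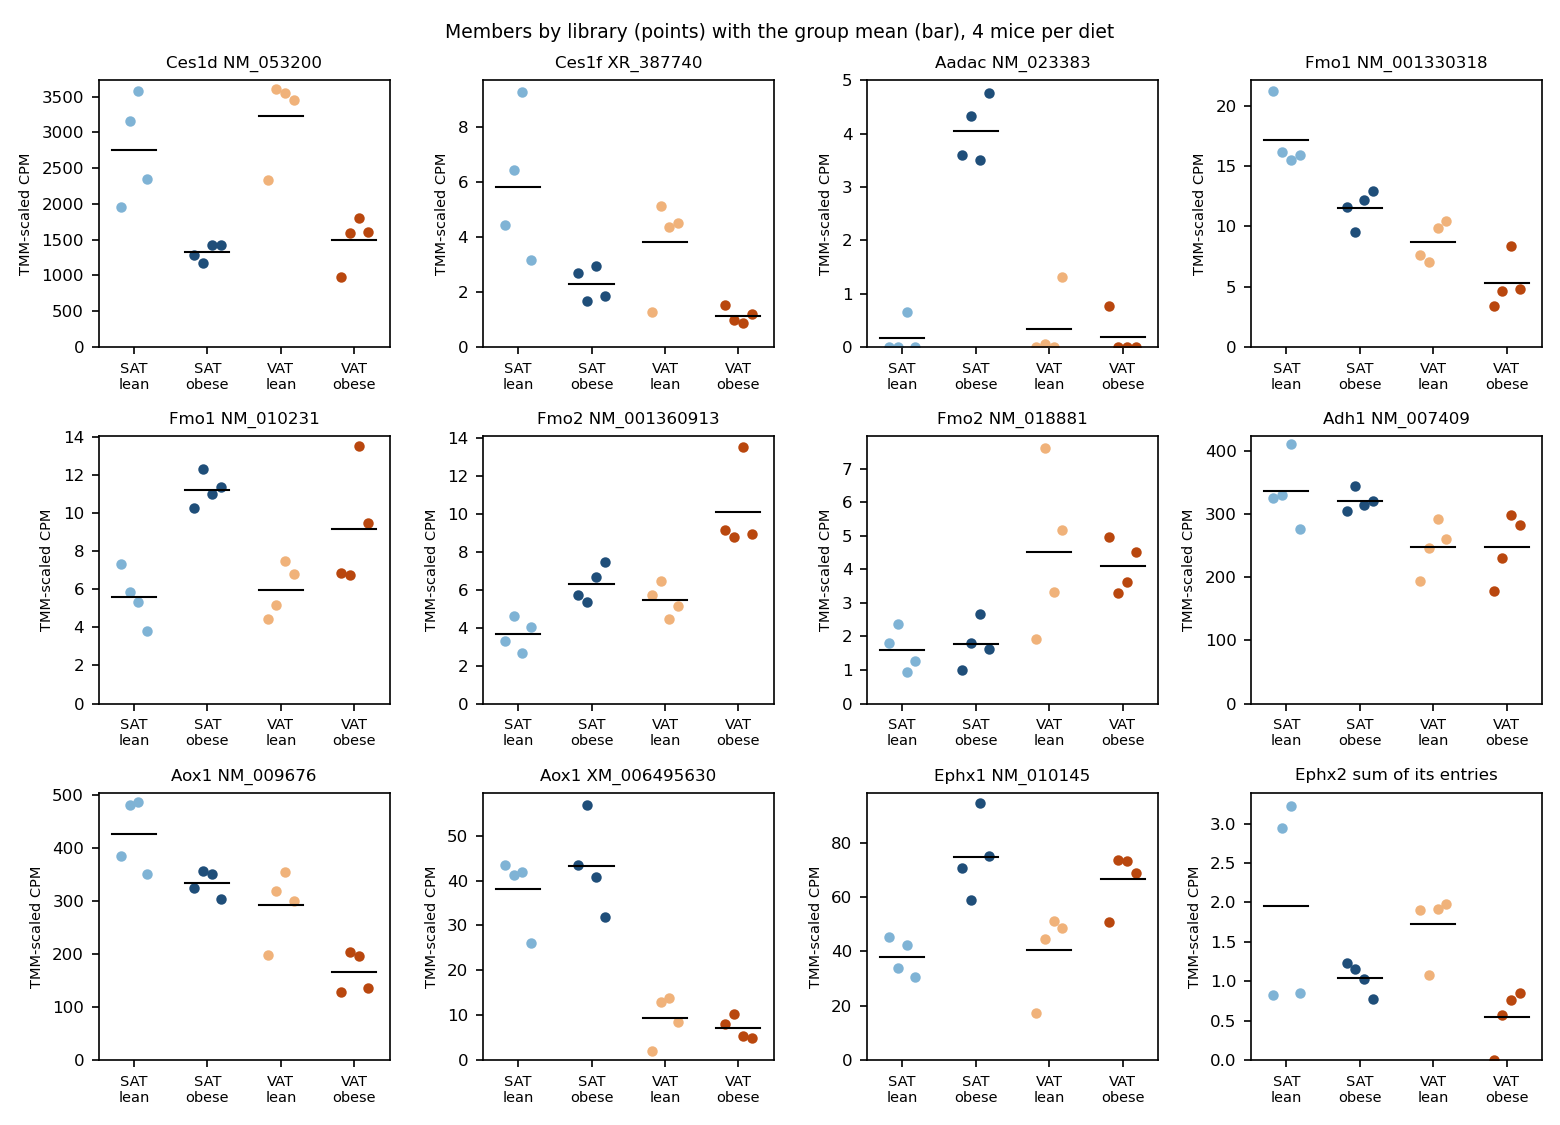
Level of each member by library: the horizontal axis gives the 4 groups and the vertical axis the TMM-scaled CPM from 0, with a point per library and a bar at the mean of 4. Ces1d fell from 2761 to 1328 CPM in SAT and, in VAT, from 3235 to 1496 CPM, and the obese points lie below all lean points, whereas Adh1 overlaps between diets in both tissues.

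The first comparison asked how the long-term high-fat diet changed the members within each tissue. Levels are CPM scaled by TMM factors (trimmed mean of M values), and differences are log2 values from the edgeR quasi-likelihood test over 13288 entries with Benjamini-Hochberg adjustment. Each is called at an adjusted p below 0.05. Aadac and Fmo1 XM_006496663 are given without a test here. The latter passed the filter only through 5 libraries of lean mice, which favours a lower value in obesity. In SAT of obese mice, 3 of the other 10 entries were higher (Fmo1 NM_010231, Fmo2 NM_001360913 and Ephx1) and 2 were lower (Ces1d and Ces1f). Over all entries, 6.21% were called higher and 4.84% lower in SAT. In VAT of obese mice, 2 were higher (Fmo2 NM_001360913 and Ephx1) and 3 were lower (Ces1d, Ces1f and Aox1 NM_009676), where 6.84% and 4.08% of all entries were called. The p-values measure the spread between these mice.

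Ces1d, the triacylglycerol hydrolase of adipocytes, was the most abundant member by counts. In lean SAT it stood at 1958, 3163, 3575 and 2349 CPM in replicates 1 to 4, and in obese SAT at 1285, 1173, 1426 and 1430 CPM. All 4 obese libraries lay below all 4 lean ones. The means were 2761 ± 739 and 1328 ± 124 CPM (SD, n = 4 each), a log2 difference of -1.06 (95% interval -1.44 to -0.67, adjusted p = 0.00061). In lean VAT Ces1d stood at 2338, 3602, 3554 and 3447 CPM, and in obese VAT at 981, 1593, 1805 and 1604 CPM. The groups did not overlap here either, with a log2 difference of -1.11 (95% interval -1.50 to -0.73, adjusted p = 0.000322). Ces1d was thus 2.08 times lower in obese SAT and 2.16 times lower in obese VAT.

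Ces1f, a close relative of Ces1d on the same chromosome, was counted on the entry XR_387740. Its prefix XR is that of predicted non-coding transcripts in RefSeq. The other entry, the mRNA NM_144930, held 0 counts in all libraries, so the Ces1f values describe the first entry only. In lean SAT it stood at 4.45, 6.45, 9.31 and 3.18 CPM, and in obese SAT at 2.68, 1.69, 2.96 and 1.85 CPM. The lean libraries were all above the obese ones, and the log2 difference was -1.36 (95% interval -2.01 to -0.70, adjusted p = 0.00691). Without lean replicate 3, the highest library, it was -1.03 and not called (adjusted p = 0.0623). In lean VAT Ces1f stood at 1.27, 5.13, 4.38 and 4.51 CPM, and in obese VAT at 1.53, 0.986, 0.859 and 1.19 CPM. The low lean value is the shallow library, where it rests on 2 counts, and it overlaps the obese libraries. The log2 difference in VAT was -1.99 (95% interval -2.77 to -1.21, adjusted p = 0.00108), and -2.20 without the 2 shallow libraries (adjusted p = 0.000642). Reads may be split between Ces1 genes of similar sequence, and how the counting treated them is not stated.

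Aadac, an ester and amide hydrolase known from liver and intestine, was seen in SAT mainly in obese mice. Its counts in lean SAT were 0, 0, 7 and 0, and in obese SAT 47, 41, 51 and 62. These are 0, 0, 0.665 and 0 CPM against 3.60, 4.33, 3.51 and 4.77 CPM, with no overlap. Pooled over libraries, the level was 4.01 CPM in obese SAT and 0.203 CPM in lean SAT, a ratio of 19.8. All 7 lean counts are from replicate 3, and without it the lean libraries are at 0. These SAT values are those that chose the gene.

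In VAT, Aadac was close to the limit of detection. Its counts were 0, 1, 0 and 12 in lean VAT and 2, 0, 0 and 0 in obese VAT, 15 in all against 201 in obese SAT. It passed the filter through the 4 obese SAT libraries and 1 library of VAT, so its VAT values are also given without a test. The fitted log2 difference between diets in VAT was -2.48 (95% interval -5.40 to 0.45), and it turned to 0.51 without lean replicate 4, which holds 12 of the 15 counts. The VAT libraries with Aadac counts were those with the highest levels of the liver and gut gene Apoa1: 11.1 CPM in lean replicate 4, 40.5 CPM in obese replicate 1 and 0.775 CPM in lean replicate 2, against 0 to 0.411 CPM in the other VAT libraries. VAT, obese replicate 1, also held 27.1 CPM of the liver gene Fgb, 356 CPM of Alb and 13.0 CPM of Fabp1. Lean replicate 4, with 12 of the 15 counts, held 0 CPM of Fgb, 4.95 CPM of Fabp1 and 17.4 CPM of Alb, the lowest Alb of the VAT libraries. Lean replicate 2 held 0.0596 CPM of Fgb, 50.4 CPM of Alb and 0.119 CPM of Fabp1. Obese replicate 2, without an Aadac count, held 1.64 CPM of Fabp1. The part of these levels in the Aadac values of VAT was not tested.

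Markers of liver, gut and pancreas were also read in SAT. Of the 10 hepatocyte markers, 4 were at 0 in every lean SAT library (Apoa1, Ttr, Fgb and Cps1) and 5 in every obese SAT library (these and Apob). Alb stood at 77.4 to 229 CPM in lean SAT and 119 to 135 CPM in obese SAT, above all VAT libraries other than obese replicate 1. The hepatocyte sum, mostly the transferrin gene Trf, was 6462 to 8098 CPM in lean SAT and 7728 to 10719 in obese SAT. Of the 10 intestinal markers, 4 were at 0 in lean SAT (Fabp2, Slc5a1, Cdh17 and Fabp1) and 1 in obese SAT (Slc5a1), with sums of 20.04 to 30.7 and 18.7 to 25.6 CPM. Fabp1 had 1, 1, 3 and 1 counts in obese SAT and 0 in each lean SAT library. Pancreas markers, mostly Cela1, summed to 71.1 to 143 CPM in lean SAT and 163 to 208 CPM in obese SAT, without overlap. The part of these levels in the Aadac values was not tested.

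**Figure D2:**
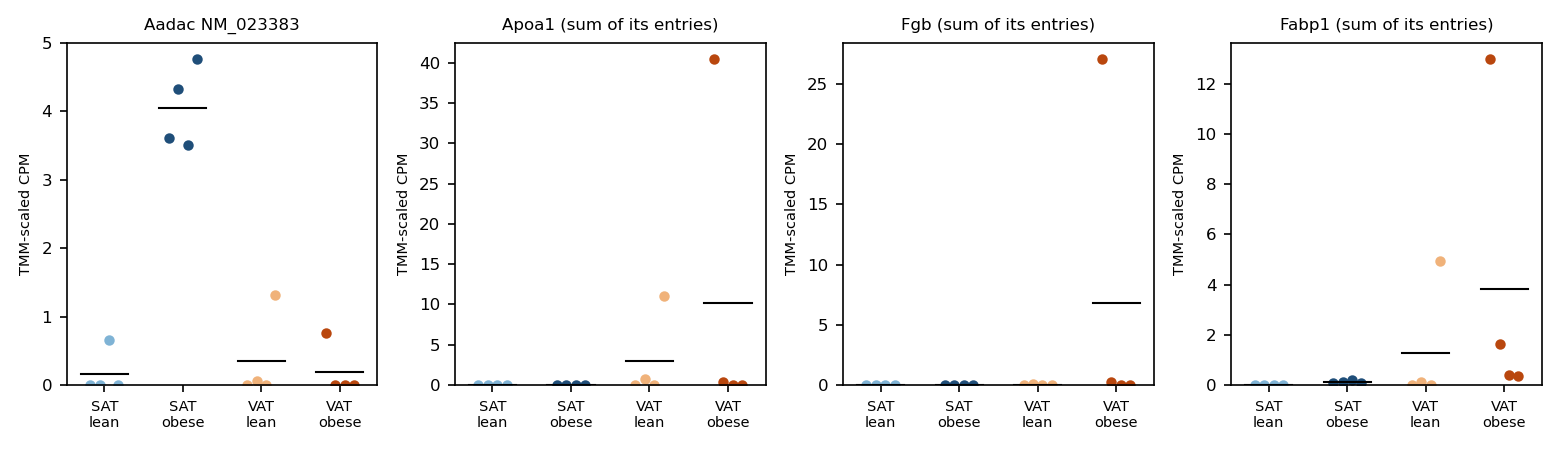
Aadac beside 3 liver and gut genes by library: the horizontal axis gives the 4 groups and the vertical axis the TMM-scaled CPM from 0, with a point per library and a bar at the mean. Aadac is at 3.51 to 4.77 CPM in obese SAT. There Apoa1 and Fgb are at 0, as in lean SAT, and Fabp1 is at 0.0767 to 0.206 CPM, against 0 in lean SAT. In VAT the 2 highest Aadac points (1.32 and 0.764 CPM) are the libraries with the most Apoa1. Fgb is at 0 CPM in the first of these and at 27.1 CPM in the second. The part of these levels in the Aadac values was not tested.

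Fmo1 and Fmo2 oxidise nitrogen and sulfur compounds, and Fmo2 is known as the form of lung. The 2 main entries of Fmo1 went opposite ways. NM_010231 stood at 7.33, 5.89, 5.32 and 3.81 CPM in lean SAT and at 10.3, 12.4, 11.0 and 11.4 CPM in obese SAT, without overlap. Its log2 difference was 0.97 (95% interval 0.50 to 1.45, adjusted p = 0.00795). NM_001330318 stood at 21.2, 16.1, 15.5 and 15.9 CPM in lean SAT and at 11.6, 9.50, 12.2 and 12.9 CPM in obese SAT, again without overlap but in the other direction. With a log2 difference of -0.58 (95% interval -1.0 to -0.15) it did not pass the test (adjusted p = 0.0759), though it did in a fit of the 8 SAT libraries alone (adjusted p = 0.0307), without the 2 shallow VAT libraries (0.0454), with legacy=FALSE (0.0396) and with limma voom (0.0392).

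In VAT, NM_010231 stood at 4.46, 5.19, 7.48 and 6.83 CPM in lean mice and at 6.87, 6.74, 13.6 and 9.47 CPM in obese mice. NM_001330318 stood at 7.64, 7.03, 9.83 and 10.5 CPM in lean VAT and at 3.44, 4.68, 8.40 and 4.78 CPM in obese VAT. The diets overlapped in both entries, and neither passed the test in VAT (log2 differences 0.59 and -0.67, adjusted p = 0.126 and 0.066). NM_001330318 passed it without lean replicate 1 (adjusted p = 0.0467) and without obese replicate 3 (-0.98, adjusted p = 0.00921), whose library was the highest of obese VAT, as well as with DESeq2 (adjusted p = 0.0438). The third entry, XM_006496663, had a mean of at most 1.35 CPM in any group, and all 5 libraries that carried it over the filter were lean (2 of SAT and 3 of VAT). Its counts were 9, 8, 14 and 3 in lean SAT, 5, 8, 4 and 4 in obese SAT, 1, 25, 12 and 18 in lean VAT and 0, 2, 8 and 7 in obese VAT, and the fitted log2 differences between diets were -1.15 in SAT and -1.69 in VAT. Summed over its entries, Fmo1 did not pass the test in either tissue: 24 ± 3.96 and 23.3 ± 1.09 CPM in lean and obese SAT, and 16.7 ± 2.90 and 14.6 ± 5.38 CPM in lean and obese VAT (log2 differences -0.05, 95% interval -0.45 to 0.35, and -0.18, 95% interval -0.60 to 0.24). The background of calls on summed counts was 11.6% of genes in SAT and 12.2% in VAT, either direction.

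The share of NM_010231 among the counts of both main Fmo1 entries was 19.3% to 26.8% in lean SAT and 46.8% to 56.5% in obese SAT. In VAT it was 36.8% to 43.2% in lean mice and 59.0% to 66.7% in obese mice. The diets did not overlap in either tissue, and every lean VAT library lay between the lean and obese SAT libraries. As log2 ratios of the 2 entries, the diets differed by 1.60 in SAT and by 1.33 in VAT (exact permutation test, 4 against 4, two-sided p = 0.0286 in each, the smallest this design allows, adjusted p = 0.0643 over 9 ratio tests). The ratio was higher in VAT than in SAT of the same mouse in 8 of 8 mice, by 0.95 (exact sign-flip permutation test, p = 0.00781, adjusted p = 0.0352). These ratio tests were chosen after the values were seen. How reads shared by both entries of a gene were counted is not stated, and the shares and ratios of the Fmo1, Fmo2 and Aox1 entries rest on it. Which exons set the 2 entries apart was not analysed here.

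Fmo2 was higher in obesity on the entry NM_001360913. It stood at 3.29, 4.63, 2.66 and 4.03 CPM in lean SAT and at 5.75, 5.38, 6.67 and 7.46 CPM in obese SAT. In VAT it stood at 5.73, 6.50, 4.49 and 5.17 CPM in lean mice and at 9.17, 8.79, 13.6 and 8.96 CPM in obese mice. No obese library overlapped the lean ones of its tissue. The log2 differences were 0.82 in SAT (95% interval 0.35 to 1.29, adjusted p = 0.0217) and 0.90 in VAT (95% interval 0.43 to 1.36, adjusted p = 0.0103). The SAT call was lost without lean replicate 1 (adjusted p = 0.058), lean replicate 3 (0.0953) or obese replicate 4 (0.0696) and without a filter (0.0573), and the VAT call without obese replicate 3 (0.07). The entry NM_018881 overlapped between diets in both tissues (log2 differences 0.15, adjusted p = 0.86, and -0.32, adjusted p = 0.629). The sum of the Fmo2 entries was not called in SAT (log2 difference 0.63, adjusted p = 0.0748) or in VAT (0.41, adjusted p = 0.255).

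**Figure D3:**
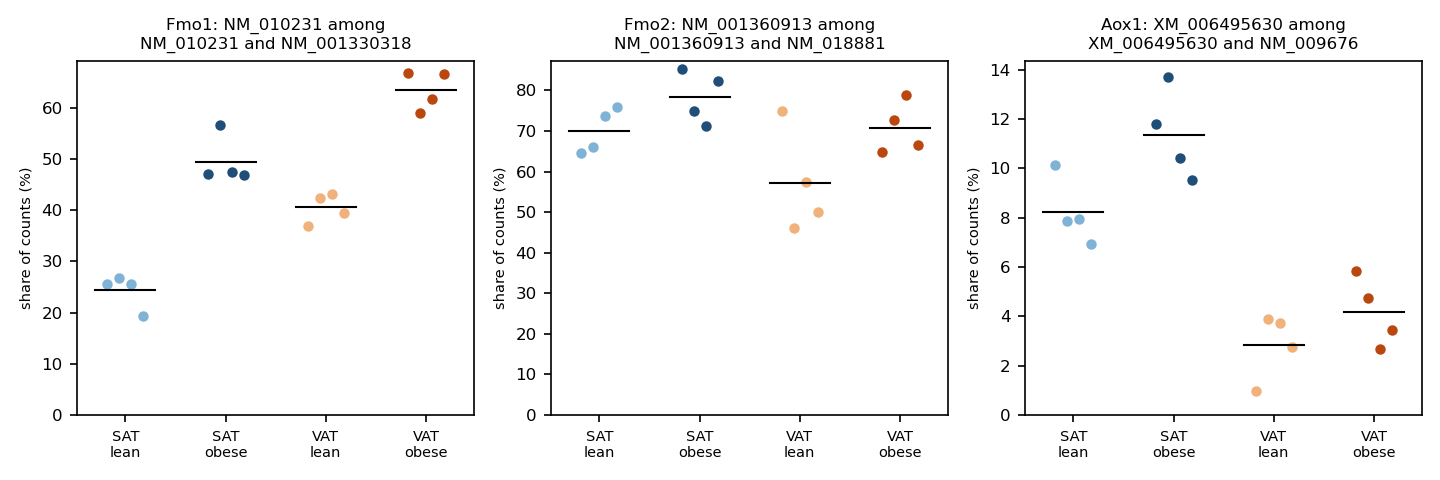
Share of counts (%, vertical axis from 0) that fell on 1 of a pair of entries of Fmo1, Fmo2 and Aox1 in each of the 4 groups, with a point per library and a bar at the mean. The Fmo1 share rises from 24.3% in lean SAT to 49.5% in obese SAT and from 40.5% in lean VAT to 63.5% in obese VAT with no overlap, and the Aox1 share is lower in VAT than in SAT. The shares rest on how the counting treated reads common to both entries, which is not stated.

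Adh1, the cytosolic dehydrogenase of ethanol and retinol, overlapped between diets in both tissues. It stood at 326, 330, 411 and 277 CPM in lean SAT and at 304, 345, 313 and 320 CPM in obese SAT. In VAT it stood at 194, 246, 292 and 260 CPM in lean mice and at 178, 230, 299 and 283 CPM in obese mice. The log2 differences were -0.07 in SAT (95% interval -0.38 to 0.24, adjusted p = 0.835) and -0.01 in VAT (95% interval -0.32 to 0.31, adjusted p = 0.991), and neither passed the test.

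Aox1 oxidises aldehydes, retinaldehyde among them, with a molybdenum cofactor. Its main entry NM_009676 stood at 385, 482, 486 and 351 CPM in lean SAT and at 324, 357, 351 and 304 CPM in obese SAT, with overlap. The log2 difference of -0.35 in SAT did not pass the test (95% interval -0.69 to -0.01, adjusted p = 0.19). In lean VAT the entry stood at 197, 319, 354 and 300 CPM, and in obese VAT at 129, 204, 197 and 135 CPM. Only the shallow lean library reached down to the obese ones, and the log2 difference was -0.82 (95% interval -1.17 to -0.47, adjusted p = 0.00239). The second entry, XM_006495630, did not pass the test in SAT (log2 difference 0.17, adjusted p = 0.744) or VAT (-0.58, adjusted p = 0.265). The sum of both gave -0.31 in SAT (adjusted p = 0.246) and -0.84 in VAT (adjusted p = 0.00174).

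Ephx1, the microsomal epoxide hydrolase, was higher in obesity. It stood at 45.4, 33.9, 42.3 and 30.7 CPM in lean SAT and at 70.8, 58.8, 94.6 and 75 CPM in obese SAT, where every obese library was above every lean one. The log2 difference was 0.97 (95% interval 0.53 to 1.40, adjusted p = 0.00442), a 1.95-fold rise. In lean VAT it stood at 17.2, 44.5, 51.1 and 48.8 CPM, and in obese VAT at 50.8, 73.9, 73.5 and 69.0 CPM. The lowest obese library lay just under the highest lean one, and the log2 difference of 0.67 (95% interval 0.23 to 1.12) was close to the limit (adjusted p = 0.0439). Leaving out any of 6 of the 8 mice ended the VAT call, with values from 0.46 (without lean replicate 1) to 0.72, and so did a fit of the 8 VAT libraries alone (0.66, adjusted p = 0.079). Without the 2 shallow libraries it was 0.58 (adjusted p = 0.0226).

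Ephx2, the soluble hydrolase of fatty acid epoxides, was too thinly counted for a test of its entries. Summed over entries, its counts were 10, 21, 34 and 4 in lean SAT, 16, 11, 15 and 10 in obese SAT, 3, 18, 18 and 18 in lean VAT and 0, 7, 8 and 10 in obese VAT. Scaled to CPM, the obese libraries were below the lean ones in VAT and overlapped them in SAT. On summed counts the log2 differences were -0.94 in SAT (95% interval -1.86 to -0.01, adjusted p = 0.186) and -1.36 in VAT (95% interval -2.42 to -0.29, adjusted p = 0.0939), and neither passed the test.

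**Figure D4:**
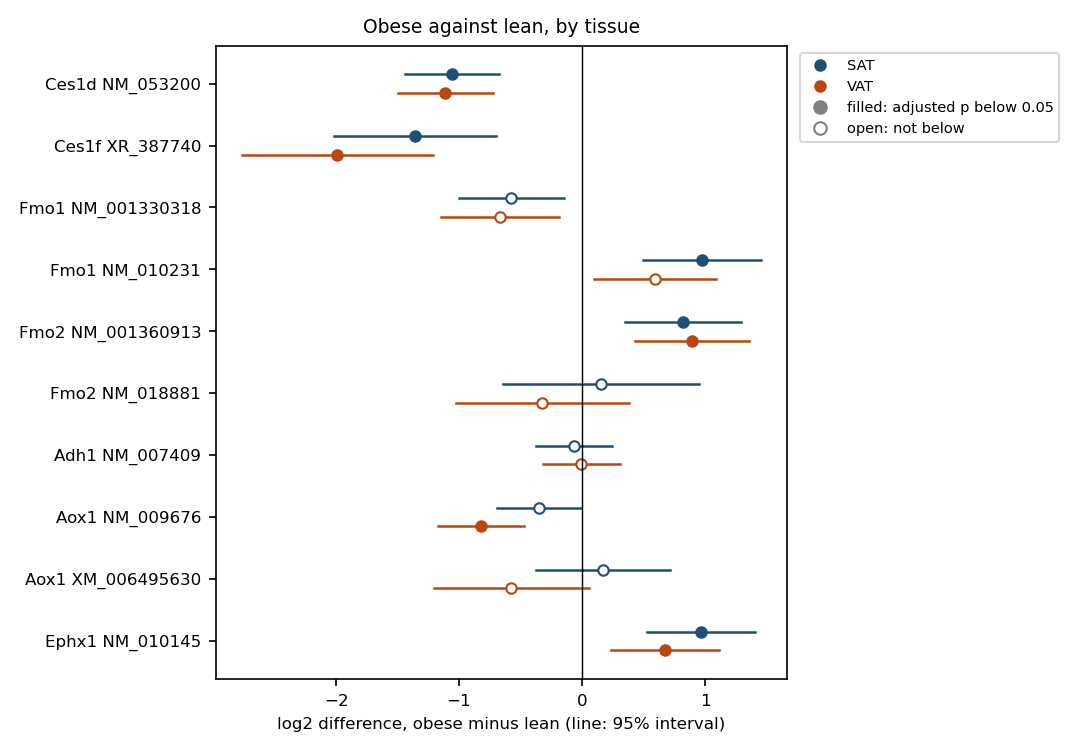
Log2 difference between obese and lean mice (horizontal axis) for the 10 entries tested for diet (vertical axis), in SAT (blue) and VAT (orange), each with its 95% interval. Filled points passed an adjusted p below 0.05: 5 of 10 in SAT and 5 of 10 in VAT. Ces1d and Ces1f lie below 0 in both tissues, and Ephx1 and Fmo2 NM_001360913 above 0.

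Whether the response to diet differed between the tissues was tested in the same mice, with the mouse as a block. None of the 11 entries that passed the filter, Aadac left out, was called (edgeR, 0 at an adjusted p below 0.05, 2 at an unadjusted p below 0.05), where 2.17% of all entries were. DESeq2 also called none of them. The 2 were the Aox1 entries: NM_009676 (difference of log2 differences, VAT minus SAT, -0.48, 95% interval -0.83 to -0.12, adjusted p = 0.157) and XM_006495630 (-0.75, 95% interval -1.40 to -0.09, adjusted p = 0.254). Without lean replicate 1, whose VAT library is the shallowest, both were called (-0.62, adjusted p = 0.0337, and -1.03, adjusted p = 0.0125), and without both shallow libraries XM_006495630 was (-1.04, adjusted p = 0.0162). For Ces1d the difference was -0.10 (95% interval -0.46 to 0.25) and for Ephx1 -0.26 (95% interval -0.85 to 0.32). For Aadac, chosen by its SAT libraries, this contrast was not tested.

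The second comparison set VAT against SAT of the same mice. In lean mice 1 entry was higher in VAT and 4 were lower, where 7.98% and 6.84% of all entries were called. In obese mice 2 were higher and 5 lower, where 15.9% and 13.5% of all entries were called. The higher calls, 1 and 2 of 11 entries and all of Fmo2, are near the background of higher calls. Adipocyte markers summed to less in VAT than in SAT in both diets, as given above. Markers of mesothelium, the lining of visceral fat, summed to 270 to 666 CPM in lean VAT and 332 to 410 CPM in obese VAT, against 0.688 to 2.10 CPM in SAT.

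Among the 11 tested entries, Aox1 XM_006495630 had the largest tissue difference in either diet. It stood at 43.5, 41.2, 42.0 and 26.1 CPM in lean SAT and 1.91, 12.9, 13.8 and 8.48 CPM in lean VAT. In obese mice it stood at 43.5, 56.8, 40.9 and 32.0 CPM in SAT and 8.02, 10.2, 5.44 and 4.86 CPM in VAT. No VAT library reached a SAT library. The log2 differences were -1.90 in lean mice (95% interval -2.36 to -1.43, adjusted p = 1.56e-06) and -2.64 in obese mice (95% interval -3.11 to -2.18, adjusted p = 7.83e-09). The main entry NM_009676 was lower in VAT by less, with -0.55 in lean mice (adjusted p = 0.00247) and -1.03 in obese mice (adjusted p = 9.59e-07). The ratio of the second entry to the main one was lower in VAT in 8 of 8 mice, by -1.66 on the log2 scale (exact sign-flip permutation test, p = 0.00781, adjusted p = 0.0352), also a test chosen after the values were seen.

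For Fmo1 and Fmo2, which lie near each other, the entries called between tissues were lower in VAT for Fmo1 and higher for Fmo2. Fmo1 NM_001330318 was lower in VAT, by -0.93 in lean mice (95% interval -1.37 to -0.49, adjusted p = 0.00341) and -1.10 in obese mice (95% interval -1.55 to -0.65, adjusted p = 0.000484), while NM_010231 was not called (0.18, adjusted p = 0.731, and -0.32, adjusted p = 0.315). Fmo2 NM_018881 was higher in VAT, by 1.53 in lean mice (95% interval 0.77 to 2.28, adjusted p = 0.00552) and 1.17 in obese mice (95% interval 0.49 to 1.86, adjusted p = 0.00978). The lean call was lost without lean replicate 2 (adjusted p = 0.0533), whose VAT library held 128 of the 498 counts of the entry, and the obese call without obese replicate 1 (0.0568) or obese replicate 4 (0.0695). Fmo2 NM_001360913 was called higher in VAT of obese mice (0.67, adjusted p = 0.0178, lost without obese replicate 2, 0.068, or obese replicate 3, 0.133, and without a filter, 0.159) and not of lean mice (0.58, adjusted p = 0.115), and these values were not tested against each other beyond the difference of responses above. Summed over entries, Fmo1 was -0.49 in lean mice (adjusted p = 0.0899, not called) and -0.70 in obese mice (adjusted p = 0.00652), and Fmo2 was 0.95 (adjusted p = 0.00202) and 0.77 (adjusted p = 0.00209). On summed counts 15.9% of genes were called between tissues in lean mice and 31.4% in obese mice, either direction.

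Adh1 was lower in VAT by -0.43 in lean mice (adjusted p = 0.0191) and -0.40 in obese mice (adjusted p = 0.0182). Without the 2 shallow libraries neither passed the test (-0.34, adjusted p = 0.0636, and -0.27, adjusted p = 0.0952), nor did they without the mouse block (adjusted p = 0.0609 and 0.069). The lean call was also lost without lean replicate 1, 2 or 3 (adjusted p up to 0.0953), and the obese call without obese replicate 1 or 2 (up to 0.0878). Ces1f was lower in VAT of obese mice (-1.01, 95% interval -1.77 to -0.25, adjusted p = 0.0406), a call lost without lean replicate 2 (adjusted p = 0.0527) and without any of the 4 obese mice, with values from -0.72 (without obese replicate 3) to -1.18. The Ces1f value without the 2 shallow libraries was -1.05 (adjusted p = 0.0503), and it was not called in lean mice (-0.52, adjusted p = 0.31). Ces1d did not pass the test in either diet (0.25, 95% interval -0.004 to 0.50, adjusted p = 0.193, and 0.14, 95% interval -0.11 to 0.39, adjusted p = 0.411), but without the 2 shallow libraries it was called higher in VAT of obese mice (0.33, adjusted p = 0.0308). Ephx1 did not pass it (0.11, adjusted p = 0.786, and -0.15, adjusted p = 0.599).

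**Figure D5:**
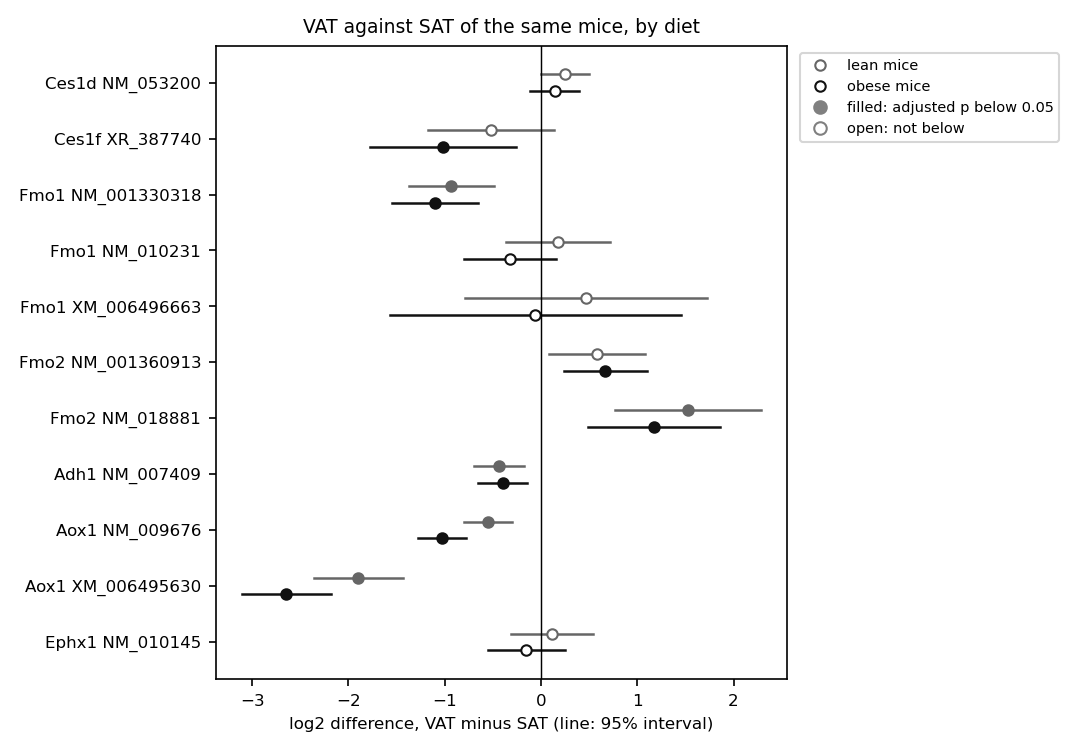
Log2 difference between VAT and SAT of the same mice (horizontal axis) for the 11 tested entries other than Aadac (vertical axis), in lean mice (grey) and obese mice (black), each with its 95% interval. Filled points passed an adjusted p below 0.05. Of these entries, Aox1 XM_006495630 lies farthest from 0 at -1.90 and -2.64, and the Fmo2 entries lie above 0.

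Levels between genes were compared per kb of coding sequence, and only for the 3 genes with 1 entry. Ces1d was highest in each group, at 1629 ± 436 CPM per kb in lean SAT, 784 ± 72.9 in obese SAT, 1909 ± 355 in lean VAT and 882 ± 210 in obese VAT. Adh1 came next, at 298 ± 49.3, 285 ± 15.4, 220 ± 36.4 and 220 ± 48.7 CPM per kb in the same order. Aadac was lowest, at 0.139 ± 0.278, 3.39 ± 0.504, 0.289 ± 0.545 and 0.160 ± 0.320 CPM per kb. The ranges of Ces1d, Adh1 and Aadac did not overlap in any group.

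Over the 16 libraries, the pattern of Ces1d was most like that of Gsta4, a glutathione transferase for the lipid peroxidation product 4-hydroxynonenal (Pearson r = 0.967 of log2 CPM), Car3 (r = 0.942), an adipocyte carbonic anhydrase, and Maob (r = 0.940), a monoamine oxidase. Aox1 NM_009676 was most like Fabp4, the fatty acid binding protein of adipocytes (r = 0.959), and Fmo1 NM_001330318 most like Mrps18b (r = 0.938). Ephx1 was most like 2310022B05Rik (r = 0.911). Among the 6 member entries with a mean of at least 10 CPM, Fmo1 NM_001330318 and Aox1 NM_009676 were the most alike (r = 0.868), and Ces1d and Ephx1 the least (r = -0.500). These are descriptions over libraries that fall into 4 groups of shared tissue and diet, among 3974 candidate entries with a mean of at least 10 CPM.

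Of the wider families of the members, 44 relatives were listed (other carboxylesterases, paraoxonases, cholinesterases, monooxygenases, dehydrogenases, oxidases and epoxide hydrolases). Of these 10 genes had a tested entry, 14 entries in all. In SAT 1 was higher and 2 were lower, with a median log2 difference of 0.24, and in VAT 2 were higher and 2 lower, with a median of -0.29, beside medians of 0.01 and 0.02 over all entries. Of all entries 6.21% were called higher and 4.84% lower in SAT, and 6.84% and 4.08% in VAT, so that 1 of 14 higher in SAT is near the background. Nceh1, a cholesterol ester hydrolase related to Aadac, was higher in both tissues on its entry NM_178772: 0.188 ± 0.317 and 1.55 ± 0.615 CPM in lean and obese SAT (log2 difference 2.59, adjusted p = 0.00439), and 1.37 ± 0.246 and 4.74 ± 1.28 CPM in lean and obese VAT (1.77, adjusted p = 0.00793). Summed over its 2 entries, the Nceh1 difference was 1.51 in SAT (adjusted p = 0.0132) and 1.67 in VAT (adjusted p = 0.00182). Pon1, a paraoxonase, is among the 2 lower in each tissue, but all 5 libraries that carried it over the filter were lean, which favours a lower value in obesity. Its levels in lean and obese mice were 0.886 ± 0.287 and 0.0911 ± 0.108 CPM in SAT and 2.72 ± 0.767 and 0.260 ± 0.183 CPM in VAT, given without a test. Without Pon1, 1 relative was lower in each tissue. Xdh, which shares the molybdenum cofactor with Aox1, was lower in obese SAT (-0.69, adjusted p = 0.00334). Its entry XR_003952104 also has the prefix of predicted non-coding transcripts. Bche was lower in obese VAT (-2.20, adjusted p = 0.0071). Of the listed carboxylesterases other than the members, Ces2g had the most counts, 1307 in all libraries.

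The enzymes that supply or follow the members were listed in 4 further groups. Of 22 tested entries for redox partners and cofactor supply, 5 were higher in obese SAT and 0 lower, and in obese VAT 0 were higher and 2 lower (medians -0.03 and -0.15), beside 6.21% and 4.84% of all entries in SAT and 6.84% and 4.08% in VAT. At an unadjusted p below 0.05 the counts of 0 were 2 lower in SAT and 2 higher in VAT, and DESeq2 called 1 lower in SAT and 0 higher in VAT. The NADPH-forming malic enzyme Me1 was higher in obese SAT (from 45.7 ± 5.76 to 119 ± 19.98 CPM, log2 difference 1.39, adjusted p = 5.82e-05) and lower in obese VAT (from 84.9 ± 19.0 to 47.2 ± 16.7 CPM, -0.85, adjusted p = 0.00586). Both entries of Mtarc1, another molybdenum enzyme, were higher in obese SAT (NM_001290273 1.22, adjusted p = 0.000137, and XM_006497192 1.57, adjusted p = 0.00659). Flad1, which makes FAD, was lower in obese VAT (-1.35, adjusted p = 0.0427).

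Of 20 entries of aldehyde dehydrogenases, 1 was higher and 2 were lower in each tissue (medians 0.10 in SAT and -0.08 in VAT), beside the same 6.21% and 4.84% in SAT and 6.84% and 4.08% in VAT. The 1 entry of 20 is near the background of higher calls. Aldh2, the mitochondrial enzyme for acetaldehyde, was lower in both (-0.73, adjusted p = 0.0022, and -0.53, adjusted p = 0.0206). Aldh1a7 was higher in obese SAT (0.67, adjusted p = 0.00267) and Aldh1a2, which makes retinoic acid, in obese VAT (0.89, adjusted p = 0.00288). Aldh1a1 NM_001361503 was lower in obese SAT (-1.54, adjusted p = 0.0103), and Aldh4a1 in obese VAT (-0.51, adjusted p = 0.0169). Summed over its 5 entries, Aldh1a1 was not called in SAT (-0.86, adjusted p = 0.073) and was called lower in VAT (-0.95, adjusted p = 0.0415).

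Of 40 entries of conjugating enzymes, 1 was higher and 6 were lower in obese SAT, and 0 were higher and 5 lower in obese VAT (medians -0.30 and -0.35), where 4.84% of all entries were lower in SAT and 4.08% in VAT, and 6.21% and 6.84% higher. The 0 higher in VAT by edgeR was 2 at an unadjusted p below 0.05, and 1 by DESeq2. Gsta4 was lower in both (from 73.0 ± 28.1 to 21.4 ± 2.91 CPM in SAT, log2 difference -1.77, adjusted p = 4.14e-05, and from 72.9 ± 19.8 to 31.2 ± 8.21 CPM in VAT, -1.22, adjusted p = 0.00138). The estrogen sulfotransferase Sult1e1 (-1.15, adjusted p = 0.0103) and the methyltransferase Inmt (-0.80, adjusted p = 0.00681) were lower in obese SAT. The glucuronosyltransferase entries Ugt1a6a (-0.80, adjusted p = 0.000783) and Ugt1a6b (-1.09, adjusted p = 0.000391), which share exons, were lower in obese VAT. Of 13 entries of xenobiotic receptors and Nrf2 targets, 0 were called in SAT by edgeR or by DESeq2 (2 higher and 0 lower at an unadjusted p below 0.05). In VAT 1 was higher, the heme oxygenase Hmox1 (1.25, adjusted p = 0.00255), and 1 lower (medians 0.02 and -0.11). All lists were written with earlier results of these data known.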

How the data were processed

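Poly(A) RNA of 16 libraries (4 mice per diet, SAT and VAT of each) was sequenced from directional libraries. The authors trimmed, aligned and counted the reads on RefSeq transcripts of GRCm39. The submitters' processing notes list Trim Galore 0.6.6, HISAT2 2.2.0, SAMtools 1.11, HTSeq 0.13.5 and edgeR 3.34.0. The authors deposited raw counts, not normalized, and CPM values beside them, which equal each column scaled by its total and were not otherwise used. The strand setting and the handling of shared reads are not given in the sources used here. Symbols were assigned by RefSeq identifier to 106824 of 130343 entries (82.0%).

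Counts were tested with edgeR 4.0.16 in R 4.3.3: TMM factors, entries above 1 CPM in at least 3 of 16 libraries, quasi-likelihood F-test (legacy=TRUE), Benjamini-Hochberg adjustment over 13288 entries. Diets were compared within each tissue in 1 fit of the 4 groups. Tissues, and the difference of diet responses, were fitted with the mouse as a block. SAT and VAT were paired by the mouse number in the labels. As a check, deviations from group means correlated at -0.009 to 0.173 (median 0.0759) in the 8 pairs from the same mouse. In the 24 pairs of SAT and VAT from different mice of 1 diet they correlated at -0.154 to 0.121 (median -0.0392). The 2 ranges overlap, so this check cannot settle the pairing. No 2 libraries of a group agreed within counting error. Entry ratios (0.5 counts added) used two-sided exact permutation tests. Limits of a count of 0 use 3 counts.

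The 9 genes and the lists were chosen with earlier results of these data known. The text names all entries of the members and, from each list, at most the 3 called entries per tissue and direction with the largest change and no overlap between diets. For likeness it names some of the 3 entries with the highest r per member entry. Coding lengths came from the GENCODE annotation of GRCm39, since no protein table was at hand, and promoters from RefSeq. The alternatives were RLE factors, no filter, filterByExpr, DESeq2 1.42.0, legacy=FALSE, limma 3.58.1 voom with mouse as a random effect (correlation 0.129), the 8 libraries of a tissue, replicate blocks, counts summed per gene, a log2 limit of 1.5, each mouse left out and, added after the data were seen, 14 libraries without the 2 shallow ones, and a ratio pseudocount of 1. The procedures were tested on simulated data.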

Additional observations from a re-analysis of the deposited data

Results flagged for a closer look

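Among 48 groups of 4 libraries (12 tested entries in 4 groups), 7 held a library whose gap to its nearest neighbour exceeded Dixon's 95% critical value as a share of the range of the group. Chance flags about 1 in 20 groups, but not where 3 of 4 libraries are at 0, since any count then stands out, which holds for 2 of the 3 Aadac groups. Ces1d in VAT, lean replicate 1, the shallowest library, was the lowest of 4 at 2338 CPM, next to 3447 CPM. Aadac stood out 3 times: in SAT, lean replicate 3 (0.665 CPM, the others at 0), in VAT, lean replicate 4 (1.32 CPM, next to 0.0596), and in VAT, obese replicate 1 (0.764 CPM, the others at 0). Fmo1 NM_001330318 was highest in SAT, lean replicate 1, at 21.2 CPM, next to 16.1 CPM. Fmo2 NM_001360913 was highest in VAT, obese replicate 3, at 13.6 CPM, next to 9.17 CPM, and without that mouse its VAT call was lost. Aox1 XM_006495630 was lowest in SAT, lean replicate 4, at 26.1 CPM, next to 41.2 CPM.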

How the results depend on the processing

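Of the member values recomputed under the alternatives, Aadac and, between diets, Fmo1 XM_006496663 left out, 165 of 180 in SAT and 161 of 180 in VAT kept their direction and their side of the limit, as did 164 of 176 for VAT against SAT in lean mice, 153 of 176 in obese mice and 163 of 176 for the difference of diet responses. Ces1d in both tissues, Ephx1 in SAT, and Ces1f and Aox1 NM_009676 in VAT kept their diet call in every refit run, though of these only Ces1f in VAT lay past a log2 limit of 1.5. Replicate numbers, used as a block in 1 alternative, join different mice of the 2 diets. Deviations of libraries with the same number correlated at -0.0942 to 0.0545 in SAT (median 0.0012) and 0.0813 to 0.173 in VAT (median 0.121). The median of SAT and VAT pairs from the same mouse was 0.0759. What the VAT libraries of the same number share was not tested. With this replicate block, 5 member entries were called in SAT and 5 in VAT, of 1621 and 1616 entries in all. Without the mouse block the difference of diet responses had 128 called entries, against 289 with it, and with DESeq2 462. The cause was not tested here or below.

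With a log2 limit of 1.5, called entries were 365 in SAT, 421 in VAT, 723 and 1274 for VAT against SAT in lean and obese mice, and 84 for the difference. Called member entries were then 0, 2, 2 and 1 in the first 4 comparisons, the 2 in VAT being Ces1f and Fmo1 XM_006496663, which only lean libraries carried over the filter. With counts summed per gene, 3 member genes were called in SAT and 3 for the tissues in lean mice. On the sums, Fmo1 NM_010231 turned to -0.050 in SAT, -0.18 in VAT and, like XM_006496663, -0.49 for the tissues in lean mice. Aox1 XM_006495630 turned to -0.31 in SAT, Fmo2 NM_018881 to 0.41 in VAT and Fmo2 NM_001360913 to -0.18 in the difference. Without the 2 shallow libraries, Adh1 was 0.019 in VAT, Ces1d 0.090 in the difference and Fmo1 XM_006496663 0.17 for the tissues in obese mice (0.040 with legacy=FALSE, 0.053 without the mouse block), and 1 member entry was called in the difference. Without a filter, Adh1 was -0.036 in the difference.

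With each mouse left out, called entries ranged from 936 (without lean replicate 2) to 1488 in SAT, from 834 (without obese replicate 4) to 1638 in VAT, from 2550 (without obese replicate 4) to 4225 for the tissues in obese mice, and from 135 to 404 in the difference. Member entries called were 3 to 5 in SAT, 3 to 5 and 4 to 7 for the tissues in lean and obese mice, and 0 to 2 in the difference. Directions turned only for values that were not called. By diet these were Fmo2 NM_018881 (-0.14 to 0.38 in SAT, -0.49 to 0.057 in VAT), Adh1 (-0.16 to 0.042 in SAT, -0.13 to 0.080 in VAT) and Aadac in VAT (-4.99 to 0.51, a fitted value without a test). Between tissues they were Fmo1 NM_010231 (-0.0077 to 0.34) and Ephx1 (-0.059 to 0.43) in lean mice and Fmo1 XM_006496663 (-0.76 to 0.70) in obese mice. In the difference they were Ces1d (-0.23 to 0.033), Fmo1 XM_006496663 (-1.23 to 0.23), Fmo2 NM_001360913 (-0.051 to 0.23) and Adh1 (-0.075 to 0.12). With 7 mice the sign-flip tests of the Fmo1 and Aox1 ratios gave an adjusted p of 0.0703 for every mouse left out. It comes from the smallest unadjusted p that 7 mice allow. That it is above the limit thus reflects the number of mice. The differences of the ratios stayed at 0.89 to 1.07 for Fmo1 and -1.74 to -1.42 for Aox1.

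Depth bounds what a low count shows. In VAT, lean replicate 1, 1 count stands for 0.637 CPM, and an entry at 0 has an upper limit of 1.91 CPM, whereas these values are 0.0688 and 0.206 CPM in SAT, obese replicate 3. Whether depth or the unstated counting of shared reads sets the low counts of Ephx2 was not tested.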
